A study of Homo sapiens with 2 samples.

Results

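The *HOX* genes of the 4 clusters were examined in single HCT116 cells after treatment with decitabine (DAC). All genes named *HOX*, a cluster letter from A to D, and digits only were taken, which gave 39 of the 33538 listed genes, and all entered the sums. HCT116 is an established human colon cancer cell line, and DAC is a cytidine analog that blocks the enzymes which copy DNA methylation to new strands. The drug was given at 0.5 μM in 2 doses, 1 day and 3 days after plating. Drug-free culture began on day 5, and the library was made from cells taken on day 7. The other group, labelled Mock, is mock-treated cells of the same line, for which the labels repeat the same schedule and do not say what replaced the drug. From each group, 1 library of single cells was prepared in droplets, and each transcript molecule was tagged at its 3′ end with a unique molecular identifier (UMI). The study looked at how expression after demethylation varies from cell to cell.

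*HOX* genes encode homeodomain transcription factors that give cells their position along the body axis. In each cluster the genes lie in the order of their paralog numbers, and genes with low numbers (anterior genes) are generally switched on earlier and closer to the head than genes with high numbers (posterior genes). The clusters are known to be held silent by Polycomb proteins and to gain DNA methylation at single genes in colorectal cancer, and the adult colon keeps a *HOX* pattern of its own.

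The mock-treated library held 1783 cells with 49911689 UMIs (median 27899 per cell), and the DAC-treated one held 1751 cells with 59046165 UMIs (median 35340). Cells with fewer than 10000 UMIs numbered 395 and 458, cells with more than 50% mitochondrial UMIs numbered 311 and 319, and 12 barcodes were in both libraries. The study's methods give fewer live cells for a library than there are barcodes here, the study counted all of these barcodes as cells, and whether each barcode is 1 cell was not tested, so that shares of cells are shares of barcodes. The UMIs of all cells of a library were added up for each gene and scaled to a total of 1000000 UMIs (counts per unit of this total, CPM). A molecule is tagged once whatever its length, so that CPM was not scaled by gene length. Genes that share exon bases on the same strand can lose or gain reads, so that ranks between genes are approximate. With 1 library per group, no test was made, and the exact 95% intervals in parentheses cover counting error only. The mitochondrial share of UMIs had a median of 17.9% and 18.3% over cells. A gene was called higher or lower in DAC-treated cells at a CPM ratio of at least 2 or at most 0.5, for genes with 10 UMIs or more in both libraries together. Of 10 colon epithelial markers 4 were called higher and 0 lower, against 25.4% and 8.39% of all genes. *EPCAM* was detected in 85.7% of mock-treated and 77.1% of DAC-treated cells (CPM ratio 0.636, 0.621 to 0.650), the keratin genes *KRT8*, *KRT18*, and *KRT19* were abundant in both libraries (CPM ratios 1.73, 2.11, and 1.07), and *CDH1* had 1152 and 1248 UMIs (CPM ratio 0.916, 0.845 to 0.993). Of the intestinal genes, *KRT20* had 27 and 599 UMIs, *CDX2* 438 and 762, *VIL1* 37 and 62, *CDH17* 1 and 9, and *CDX1* 0 and 58. Markers of other cell types, apart from *COL3A1* with 5 UMIs in each library, had more UMIs in DAC-treated cells, and 8 of the 10 with enough UMIs were called higher. The 5 blood cell markers had 18 and 368 UMIs in all, of which *CD3D* had 1 and 292 and the defining leukocyte gene *PTPRC* had 0 and 16, the 3 endothelial markers had 6 and 113 (*PECAM1* 0 and 46), and the 6 fibroblast markers had 543 and 1178, of which *COL1A1* had 533 and 1112 and *DCN* had 0 and 31. Their part in the results was not tested.

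The *HOX* genes together had 16306 UMIs (327 CPM) in the mock-treated library and 28253 UMIs (478 CPM) in the DAC-treated one, a CPM ratio of 1.46 (95% confidence interval 1.44 to 1.49). The difference was uneven over the genes. *HOXB2* and a number of genes that were nearly or fully silent in mock-treated cells were many times higher, and most genes of the HOXB cluster were 1.5 to 3 times higher. *HOXB9* and *HOXA9*, the most abundant genes of mock-treated cells, had ratios below 1 that did not reach the limit of 0.5. The genes called lower were *HOXC4* and *HOXD8*. By the share of mock-treated cells with a UMI, 27 of the 39 genes were active in mock-treated cells (1% of the cells or more), 6 were sparse, 5 were without a UMI in mock-treated cells and first seen in DAC-treated cells, and 1, *HOXD12*, had no UMI in either library. The genes nearest to the limit of 1% were *HOXC5*, with 1.12% of the mock-treated cells, and *HOXC11*, with 0.897%. The 27 active genes accounted for 16261 of the UMIs in mock-treated and 27893 of those in DAC-treated cells.

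**Figure D1:**
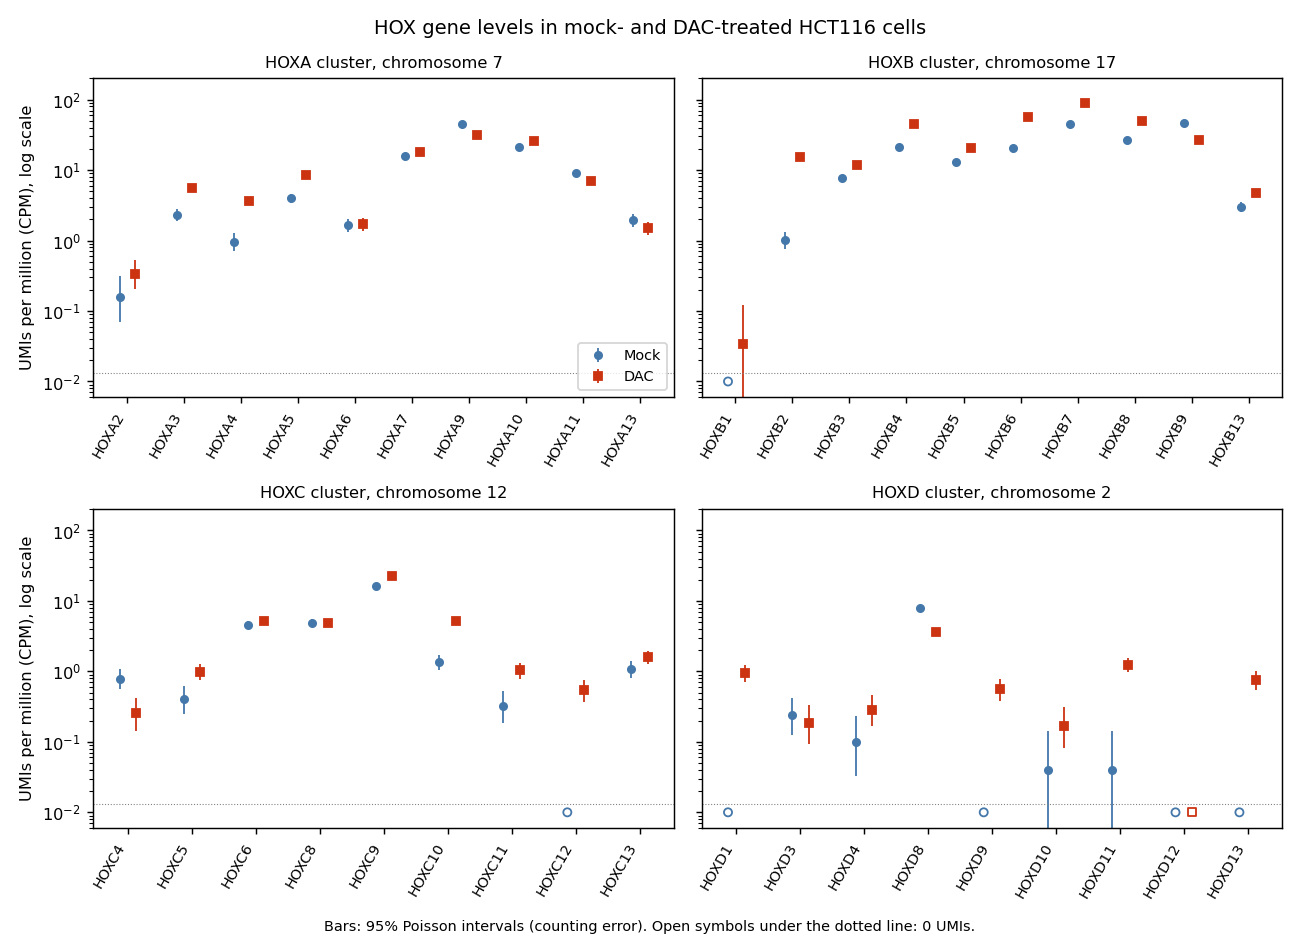
CPM (log scale) of 38 *HOX* genes in the mock-treated (circles) and the DAC-treated library (squares), in the order of paralog numbers in each cluster, with 95% Poisson intervals and with genes at 0 UMIs as open symbols under the dotted line. The highest levels in mock-treated cells were those of *HOXB9* (46.4 CPM), *HOXA9* (45.3 CPM), and *HOXB7* (45.0 CPM), and the highest in DAC-treated cells was that of *HOXB7* (90.9 CPM).

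Of the 37 genes with 10 UMIs or more in both libraries together, 19 (51.4%) were higher and 2 (5.41%) were lower in DAC-treated cells. Among all 19130 genes with as many UMIs, 25.4% were higher and 8.39% were lower. Genes with 0 UMIs in mock-treated cells reach 10 UMIs only through the DAC-treated library, which fixes their call as higher. Of the 37 *HOX* genes 4 were of this kind, and the 19130 genes include such genes too. Of the 27 genes active in mock-treated cells 10 were called higher and 2 lower, and of the 6 sparse genes 5 were called higher. The share over all genes active in mock-treated cells was not computed. The CPM ratio was above 1 for 30 of the 37 genes (81.1%) and for 64.6% of all genes, and the median log2 ratio was 1.02 over the 37 genes and 0.32 over all genes. When the libraries were scaled by the median of the ratios of 11152 abundant genes, every log2 ratio was 0.18 lower, and 28 of the 37 *HOX* genes and 56.3% of all genes were above 1, with 15 *HOX* genes called higher and 2 lower. When each cell was thinned to 10000 UMIs, 12 *HOX* genes were called higher and 1 was called lower. Fewer genes had 10 UMIs after thinning, and *HOXB4* (1.86), *HOXB7* (1.93), and *HOXD8* (0.512) then lay between the limits.

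The 4 clusters differed in level and in ratio. The HOXB cluster (chromosome 17 of hg38, from 48528526 to 48728750) held 56.6% of the *HOX* UMIs of mock-treated cells and 67.3% of those of DAC-treated cells, and its 9225 and 19003 UMIs gave a CPM ratio of 1.74 (1.70 to 1.79). The HOXC cluster (chromosome 12, from 53938831 to 54056030) had 1486 and 2488 UMIs, a ratio of 1.42 (1.33 to 1.51). The HOXA cluster (chromosome 7) had 5176 and 6303 UMIs, and the interval of its ratio of 1.03 included 1 (0.992 to 1.07). Median-of-ratios scaling gave 0.906 for this ratio, and per-cell CPM, averaged, gave 0.936, so that no direction is given for this cluster. The HOXD cluster (chromosome 2, from 176092721 to 176190907) was the lowest, with 419 and 459 UMIs and a ratio of 0.926 (0.809 to 1.06), which was 1.38 when cells were thinned to 1007 UMIs. The sums of the HOXA and HOXD clusters held single genes that differed in both directions.

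**Figure D2:**
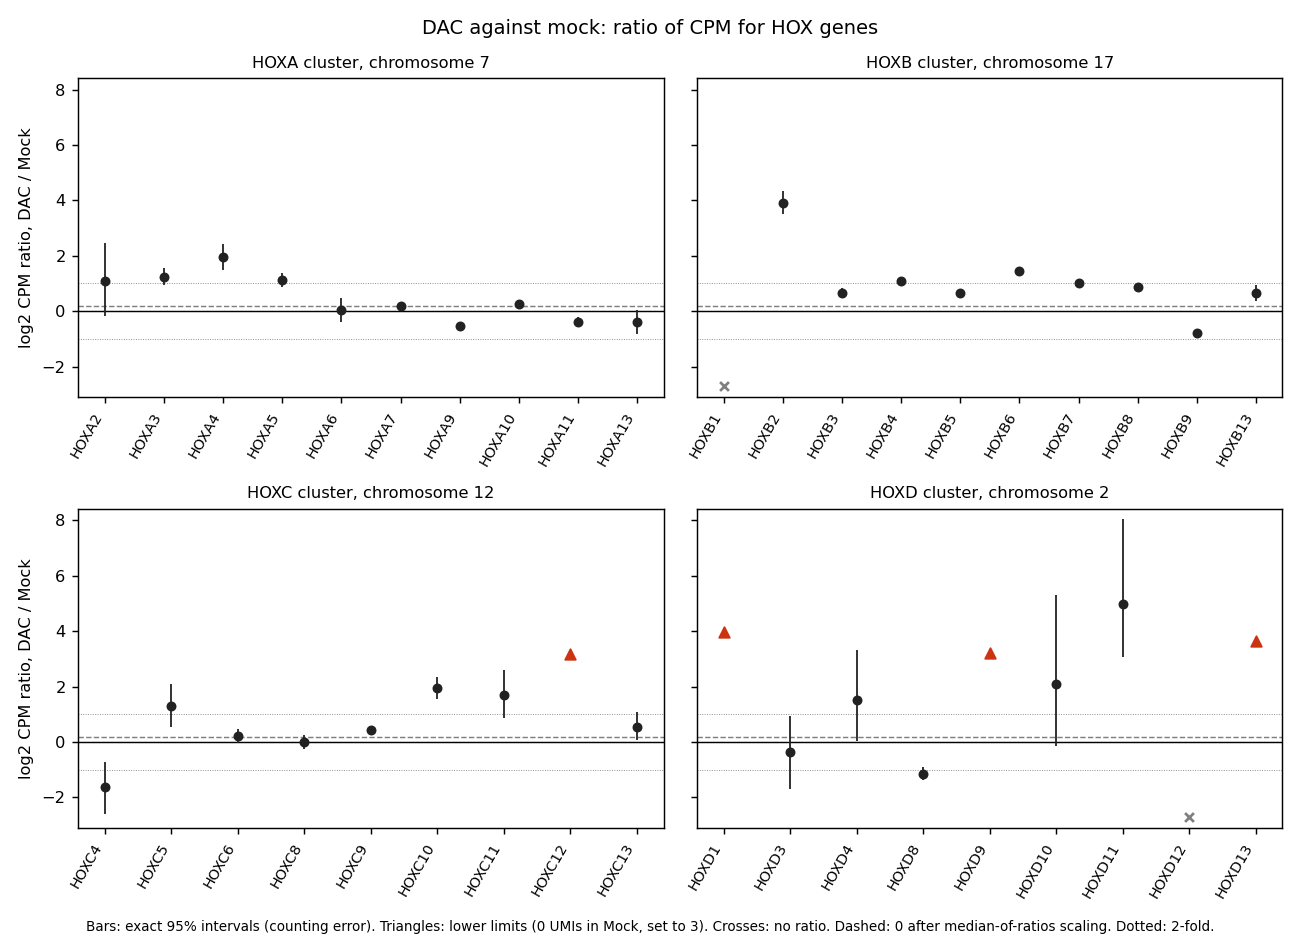
Log2 CPM ratio of DAC-treated to mock-treated cells for 38 *HOX* genes in the order of paralog numbers, with exact 95% intervals for counting error. Triangles mark lower limits for genes without a UMI in mock-treated cells and crosses mark *HOXB1* and *HOXD12*, which have no ratio. *HOXA2* to *HOXA5* lay above a 2-fold difference and *HOXA6* to *HOXA13* did not, *HOXB2* (3.92) stood above the other HOXB genes with a ratio, and *HOXB9* (-0.80) was below 0 beside *HOXB8* (0.89).

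In the HOXA cluster, the 4 genes from *HOXA2* to *HOXA5* were called higher, and of these only *HOXA4* had a ratio of 2 or more in every alternative. *HOXA4* (chromosome 7, from 27128507 to 27130780) had the highest ratio of the cluster, with 48 and 218 UMIs (mock- and DAC-treated cells, in this order here and in what follows, ratio 3.84, 2.80 to 5.36). *HOXA3*, needed for the thymus and other organs of the throat region, had 116 and 324 UMIs (ratio 2.36, 1.90 to 2.94), and its ratio was 4.25 (2.63 to 7.12) at 10000 UMIs per cell, 1.61 on 4 and 6 UMIs at 1007 UMIs per cell, and 1.90 with averaged per-cell CPM. *HOXA5*, needed for lung development, had 198 and 509 UMIs (ratio 2.17, 1.84 to 2.57), which was 1.91 with median-of-ratios scaling and 1.80 with averaged per-cell CPM. For *HOXA2*, which patterns the pharyngeal arches, 8 and 20 UMIs gave a ratio of 2.11 with an interval that included 1 (0.892 to 5.55), median-of-ratios scaling gave 1.86, and 1 and 4 UMIs at 10000 UMIs per cell gave 4.29 (0.425 to 211).

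None of the 6 HOXA genes from *HOXA6* to *HOXA13* was called higher or lower. *HOXA9*, a gene of blood stem cells that is often overexpressed in leukemia, was among the most abundant *HOX* genes, with 2262 and 1862 UMIs. Its ratio was 0.696 (0.654 to 0.740), and it stayed below 1 in all 8 alternatives, from 0.613 to 0.792. The neighbour *HOXA10*, which patterns the uterus and the limbs, had 1071 and 1514 UMIs (ratio 1.19, 1.10 to 1.29). At 10000 UMIs per cell its ratio was 1.03 with an interval that included 1 (0.876 to 1.21). Median-of-ratios scaling gave 1.05 and averaged per-cell CPM gave 1.02. The ratio of *HOXA10* to *HOXA9* UMIs within a library, which does not depend on the scaling, was 0.473 in mock-treated and 0.813 in DAC-treated cells, 1.72 times as high (1.55 to 1.90). *HOXA11* (461 and 417 UMIs, ratio 0.765) was lower with an interval below 1 (0.668 to 0.875), with 0.315 on 17 and 5 UMIs at 1007 UMIs per cell, and *HOXA13*, which patterns the hindgut and the digits, had 97 and 88 UMIs (ratio 0.767, 0.568 to 1.03). *HOXA6* had 82 and 100 UMIs (ratio 1.03, 0.762 to 1.40) and *HOXA7* had 779 and 1054 UMIs (ratio 1.14, 1.04 to 1.26). The direction of *HOXA6* turned with median-of-ratios scaling (0.908) and that of *HOXA7* when per-cell CPM was averaged (0.946), while at 1007 UMIs per cell the *HOXA7* ratio was 1.92 (1.06 to 3.55). In the annotation, 31.3% of the exon bases of *HOXA4*, 15.9% of those of *HOXA9*, and 9.9% of those of *HOXA10* are shared with other genes on the same strand. Their counts may thus miss reads or include reads of those genes. *HOXA9* and *HOXA10* overlap the same other gene, which can affect the ratio between them.

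The promoters of *HOXA4* and *HOXA9* are shown because both genes were active in mock-treated cells and their ratios lay on opposite sides of 1. Each sequence (RefSeq, GRCh38.p14) reads 5′ to 3′ on the strand of the gene, from 250 bases before to 50 bases after the annotated start, with each CG dinucleotide, the site that DNA methyltransferases methylate, in capitals. The CG pair reads the same on both strands.
HOXA4, chr7:27130708-27131007, minus strand: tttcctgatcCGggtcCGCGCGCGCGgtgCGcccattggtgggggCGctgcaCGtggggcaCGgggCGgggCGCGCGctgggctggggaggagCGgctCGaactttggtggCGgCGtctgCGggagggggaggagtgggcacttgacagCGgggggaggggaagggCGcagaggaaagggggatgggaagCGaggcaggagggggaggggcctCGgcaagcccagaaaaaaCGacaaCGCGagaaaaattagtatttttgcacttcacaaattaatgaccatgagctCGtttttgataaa
HOXA9, chr7:27165488-27165787, minus strand: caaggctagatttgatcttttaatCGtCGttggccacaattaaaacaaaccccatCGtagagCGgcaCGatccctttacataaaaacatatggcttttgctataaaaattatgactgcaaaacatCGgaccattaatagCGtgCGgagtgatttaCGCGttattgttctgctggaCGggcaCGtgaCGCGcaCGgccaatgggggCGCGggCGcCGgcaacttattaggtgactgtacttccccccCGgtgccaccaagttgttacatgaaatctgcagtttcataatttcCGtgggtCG
The *HOXA4* promoter holds 27 CG sites and the *HOXA9* promoter holds 22. Of all 35116 promoters of this length, 28.2% hold 27 or more and 37.7% hold 22 or more, and 96.0% hold at least 1. DNA methylation at these sites was not part of the data analysed here.

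In the HOXB cluster, 8 of the 9 genes with a ratio had ratios above 1, from 1.57 to 15.1, and *HOXB9* was below 1. *HOXB2* (chromosome 17, from 48540894 to 48545109), which patterns the hindbrain and the facial nerve, had 51 UMIs over 49 mock-treated cells against 911 UMIs over 526 DAC-treated cells. Its ratio of 15.1 (11.4 to 20.4) was the largest among the 27 genes active in mock-treated cells. In mock-treated cells *HOXB3* had 7.45 times the UMIs of *HOXB2*, and in DAC-treated cells 0.773 times. At 10000 UMIs per cell, *HOXB2* was detected in 1.22% (0.715 to 1.95%) of the mock-treated and 12.9% (11.1 to 14.9%) of the DAC-treated cells, with at most 2 and 4 UMIs in a cell.

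The middle of the HOXB cluster was abundant in both libraries. *HOXB7* (chromosome 17, from 48607232 to 48633572), overexpressed in several carcinomas, had 2244 and 5368 UMIs (ratio 2.02, 1.92 to 2.13), and its share of all *HOX* UMIs was 13.8% in mock-treated and 19.0% in DAC-treated cells. *HOXB6* (from 48595751 to 48604992) had 1016 and 3311 UMIs (ratio 2.75, 2.57 to 2.96), and *HOXB4*, known for expanding blood stem cells, had 1059 and 2667 UMIs (ratio 2.13, 1.98 to 2.29). *HOXB8* had 1349 and 2954 UMIs (ratio 1.85, 1.73 to 1.98), and *HOXB5*, which acts in the nerve cells of the gut wall, had 659 and 1234 UMIs (ratio 1.58, 1.44 to 1.74). The *HOXB8* ratio ran from 1.29 (0.867 to 1.92) at 1007 UMIs per cell to 2.27 without cells over 20% mitochondrial UMIs. *HOXB3* had 380 and 704 UMIs (ratio 1.57, 1.38 to 1.78). At 1007 UMIs per cell 10 and 29 UMIs gave 3.10, and median-of-ratios scaling gave 1.38. Ratios of *HOXB4* and *HOXB7* lie close to the limit of 2 and were 1.86 and 1.78 at their lowest among the alternatives, and the *HOXB6* ratio was 1.73 (1.21 to 2.49) at 1007 UMIs per cell. *HOXB3* and *HOXB6* share 6.4% and 16.6% of their exon bases with other genes of the cluster on the same strand. *HOXB1*, at the 3′ end of the cluster, had 0 and 2 UMIs, and no ratio was computed.

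*HOXB9* (chromosome 17, from 48621156 to 48626358), a posterior gene that acts in the rib cage and the mammary gland, had the most UMIs of all *HOX* genes in mock-treated cells and was in the sixth place in DAC-treated cells. It had 2317 UMIs over 982 mock-treated cells against 1572 UMIs over 725 DAC-treated cells (ratio 0.574, 0.538 to 0.612), and its share of all *HOX* UMIs was 14.2% and 5.56%. Within a library, the ratio of *HOXB9* to its neighbour *HOXB8* was 1.72 in mock-treated and 0.532 in DAC-treated cells, 0.310 times as high (0.283 to 0.340). At 10000 UMIs per cell the *HOXB9* ratio was 0.578 (0.506 to 0.659). At 1007 UMIs per cell it was 0.932 on 54 and 47 UMIs, with an interval (0.616 to 1.40) that included 1 and lay above the ratio of 0.574. *HOXB13*, the last gene of the cluster, expressed in the prostate and the distal colon, had 150 and 280 UMIs (ratio 1.58, 1.29 to 1.94), with a ratio of 4.82 on 2 and 9 UMIs at 1007 UMIs per cell. At 10000 UMIs per cell the *HOXB13* ratio was 1.29 on 44 and 53 UMIs (0.851 to 1.97), and averaged per-cell CPM gave 1.25. The genes *PRAC1* and *PRAC2*, which lie beside *HOXB13*, were both at 0 UMIs in the mock-treated library, and had 97 and 154 UMIs after DAC.

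**Figure D3:**
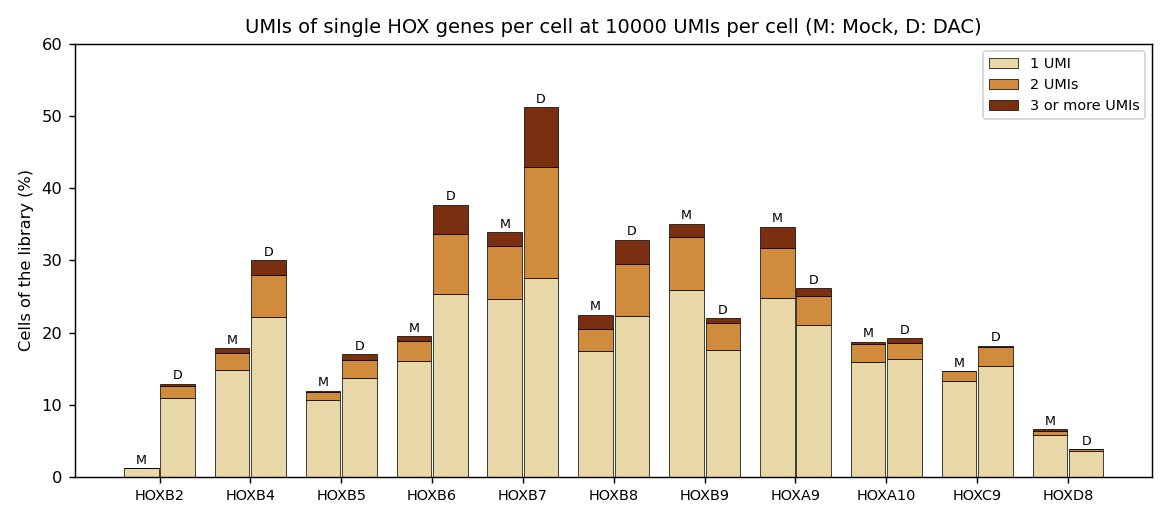
Share of the cells of each library with 1, 2, or 3 or more UMIs of single *HOX* genes after each cell was thinned to 10000 UMIs (1388 mock-treated cells, M, and 1293 DAC-treated cells, D). For *HOXB7*, 3 or more UMIs were present in 1.95% of the mock-treated and 8.28% of the DAC-treated cells, and for *HOXB9* in 1.80% and 0.619%.

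In the HOXC cluster, the largest ratios were those of *HOXC10*, *HOXC11*, and *HOXC12*. *HOXC10*, which acts in the lumbar spinal cord and the hindlimb, had 67 and 303 UMIs (ratio 3.82, 2.93 to 5.06), and was detected in 3.70% and 13.4% of the cells. At 1007 UMIs per cell it had 0 and 6 UMIs, at least 2.14-fold higher against a limit of 3 UMIs. *HOXC11* had 16 and 61 UMIs (ratio 3.22, 1.83 to 5.99), and *HOXC12* had 0 and 32 UMIs. *HOXC13*, a regulator of hair keratins, had 54 and 94 UMIs (ratio 1.47, 1.04 to 2.10). The genes from *HOXC10* to *HOXC13* together had 137 and 490 UMIs, a ratio of 3.02 (2.50 to 3.68), while those from *HOXC6* to *HOXC9* together had 1290 and 1925 UMIs, a ratio of 1.26 (1.17 to 1.35). *HOXC9*, which specifies thoracic motor neurons, was the most abundant of the cluster, with 821 and 1325 UMIs (ratio 1.36, 1.25 to 1.49). *HOXC6* (225 and 309 UMIs) and *HOXC8* (244 and 291 UMIs) had ratios of 1.16 (0.974 to 1.38) and 1.01 (0.847 to 1.20). The direction of *HOXC8* turned in 6 of 8 alternatives and that of *HOXC6* in 2. *HOXC4* and *HOXC5* went in opposite directions, with 39 and 15 UMIs (ratio 0.325, 0.166 to 0.603) and 20 and 58 UMIs (ratio 2.45, 1.45 to 4.30). With averaged per-cell CPM the ratios were 0.196 and 4.48, and at 10000 UMIs per cell *HOXC5* had 3 and 11 UMIs (ratio 3.94, 1.04 to 22.0). *HOXC4* shares 17.5%, *HOXC5* shares 67.3%, and *HOXC6* shares 16.1% of its exon bases with other genes on the same strand, so that counting can split reads among these transcripts.

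In the HOXD cluster, *HOXD8* carried nearly all UMIs of mock-treated cells and was lower in DAC-treated cells, while genes on both sides of it were seen there. *HOXD8* (chromosome 2, from 176129694 to 176132695), which acts in the trunk, had 398 UMIs over 298 mock-treated cells against 214 UMIs over 181 DAC-treated cells (ratio 0.455, 0.383 to 0.538). It was past the 2-fold limit in 6 of 8 alternatives. The exceptions were 10000 UMIs per cell, where the ratio was 0.512 (0.359 to 0.721), and 1007 UMIs per cell, where 7 and 6 UMIs gave 0.917. *HOXD9*, *HOXD10*, *HOXD11*, and *HOXD13*, which pattern the limbs and the genital region, together had 4 UMIs over 4 mock-treated cells against 161 UMIs over 127 DAC-treated cells (7.25% of the cells, 6.08 to 8.57%). *HOXD11* had 2 and 74 UMIs, a ratio of 31.3 (8.36 to 263), which was 8.59 at 10000 UMIs per cell, 18.3 with averaged per-cell CPM, and 48.8 without cells over 20% mitochondrial UMIs, and *HOXD10* had 2 and 10 UMIs (ratio 4.23, 0.901 to 39.7), and the annotation gives this pair 21.4% and 18.2% of their exon bases in common. *HOXD13*, mutated in inherited malformations of the digits, had 0 and 44 UMIs, *HOXD9* had 0 and 33 UMIs, and *HOXD1* had 0 and 56 UMIs. *HOXD4* had 5 and 17 UMIs (ratio 2.87, 1.02 to 9.96) and *HOXD3* had 12 and 11 UMIs (ratio 0.775, 0.310 to 1.92), with a ratio of 0.416 without cells over 20% mitochondrial UMIs. *HOXD12*, which lies between *HOXD11* and *HOXD13*, had 0 UMIs in both libraries, and 3 counts, the limit that this allows, correspond to 0.168% of the mock-treated and 0.171% of the DAC-treated cells with a UMI (exact upper limits 0.207% and 0.210%), which is no limit on the cells that express the gene.

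The promoters of 3 HOXD genes are shown with their CG sites in capitals because *HOXD13* and *HOXD1*, near the ends of the cluster, were first seen in DAC-treated cells and *HOXD8*, between them, was active in mock-treated cells and lower after DAC.
HOXD13, chr2:176092471-176092770, plus strand: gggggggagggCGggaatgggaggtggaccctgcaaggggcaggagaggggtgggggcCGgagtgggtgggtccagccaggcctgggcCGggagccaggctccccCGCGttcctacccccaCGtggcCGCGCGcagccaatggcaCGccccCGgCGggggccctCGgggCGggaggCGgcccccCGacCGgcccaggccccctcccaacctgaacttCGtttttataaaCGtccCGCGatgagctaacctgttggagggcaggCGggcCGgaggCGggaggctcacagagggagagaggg
HOXD8, chr2:176129455-176129754, plus strand: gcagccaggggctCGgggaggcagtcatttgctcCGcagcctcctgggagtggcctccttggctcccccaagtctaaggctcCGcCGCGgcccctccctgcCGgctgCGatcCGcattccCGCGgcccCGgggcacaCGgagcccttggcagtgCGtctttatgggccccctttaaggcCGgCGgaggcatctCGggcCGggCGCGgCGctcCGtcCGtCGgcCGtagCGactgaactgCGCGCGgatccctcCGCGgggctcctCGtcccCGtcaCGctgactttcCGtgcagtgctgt
HOXD1, chr2:176188418-176188717, plus strand: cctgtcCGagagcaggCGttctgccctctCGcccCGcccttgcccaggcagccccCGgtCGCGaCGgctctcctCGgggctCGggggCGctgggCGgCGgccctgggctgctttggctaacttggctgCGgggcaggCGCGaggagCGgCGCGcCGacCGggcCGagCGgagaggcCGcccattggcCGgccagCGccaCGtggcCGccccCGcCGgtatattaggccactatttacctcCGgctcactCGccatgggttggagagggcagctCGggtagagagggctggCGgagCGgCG
These promoters hold 24 (*HOXD13*), 34 (*HOXD8*), and 36 (*HOXD1*) CG sites, and 33.9%, 15.6%, and 12.7% of all promoters hold as many or more. All 3 thus hold more CG sites than the median of all promoters, 14. Promoter sequences were at hand for 20 of the 39 genes, with 26 distinct windows, since *HOXA3* and *HOXA10* have several starts and *HOXC4* and *HOXC5* share theirs. The promoters of *HOXA5*, *HOXB2* to *HOXB9*, *HOXB13*, *HOXC6*, *HOXC8* to *HOXC13*, *HOXD9*, and 1 other gene were not analysed here. The windows held a median of 22.5 CG sites, from 0 at 1 start of *HOXA3* to 44 at *HOXA13*. The numbers overlapped, with 0 to 36 sites in the 15 windows of genes called higher (7 of them of *HOXA3*), 13 to 44 in the 8 windows of genes between, and 15 and 34 in the 2 windows of genes called lower. The window with 15 sites is the one of *HOXC4* and *HOXC5* and stands among those of both directions.

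Each of the 5 genes first seen in DAC-treated cells was found in few of them. With a limit of 3 UMIs over the whole library in place of the count of 0, the CPM was at least 15.8-fold higher for *HOXD1*, at least 12.4-fold for *HOXD13*, at least 9.30-fold for *HOXD9*, and at least 9.02-fold for *HOXC12*. With the count of 0 taken as it stands, the exact 95% lower limits of these ratios were 12.4, 9.67, 7.15, and 6.92. Without cells over 20% mitochondrial UMIs, the values against 3 UMIs were 7.76 for *HOXD1* and 4.80 for *HOXD9*. At 10000 UMIs per cell they were 4.65 for *HOXD1* and *HOXD13*, 3.22 for *HOXD9*, and 3.58 for *HOXC12*. They were detected in 2.68% (*HOXD1*, 1.98 to 3.55%), 2.28% (*HOXD13*, 1.64 to 3.10%), 1.66% (*HOXD9*, 1.11 to 2.37%), and 1.77% (*HOXC12*, 1.21 to 2.50%) of the DAC-treated cells, and a cell held at most 3 UMIs of any of them. Of the 6 *HOX* genes without a UMI in mock-treated cells, 5 were thus seen in DAC-treated cells, and 4 of them with 10 UMIs or more. Among all 12414 genes without a UMI in mock-treated cells, 34.7% were seen in DAC-treated cells and 9.13% had 10 UMIs or more. No *HOX* gene with a UMI in mock-treated cells was missing from DAC-treated cells, against 4.13% of all genes. The number of first seen genes was also 5 when the DAC-treated library was thinned to the total UMIs of the mock-treated library. The 6 genes sparse in mock-treated cells, *HOXA2*, *HOXC11*, *HOXD3*, *HOXD4*, *HOXD10*, and *HOXD11*, had 45 and 193 UMIs together, a ratio of 3.63 (2.61 to 5.13), and 5 of them were called higher. Among all 3667 genes as sparse in mock-treated cells and with 10 UMIs or more in both libraries together, 55.5% were called higher and 8.73% lower, and such genes can reach 10 UMIs through the DAC-treated library alone.

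In paralog groups 2, 5, 6, 7, and 10 all ratios were above 1 (those of *HOXA6*, *HOXA7*, and *HOXC6* not under every scaling), and in groups 3, 4, 8, 9, 11, and 13 they lay on both sides of 1. The genes of group 9, *HOXA9*, *HOXB9*, *HOXC9*, and *HOXD9*, together had 5400 and 4792 UMIs, a ratio of 0.750 (0.721 to 0.780), with *HOXA9* and *HOXB9* below 1 and *HOXC9* and *HOXD9* above it. In group 8, *HOXB8* was at 1.85 and *HOXD8* at 0.455. Group 2 had the largest ratio of the groups with UMIs in mock-treated cells, 13.3 (10.2 to 17.7), which rested on *HOXB2*. Group 13, the most posterior, had 301 and 506 UMIs, a ratio of 1.42 (1.23 to 1.64), with *HOXB13*, *HOXC13*, and *HOXD13* above 1 and *HOXA13* below it.

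At least 1 *HOX* UMI was present in 1557 mock-treated cells (87.3%, 85.7 to 88.8%) and 1472 DAC-treated cells (84.1%, 82.3 to 85.8%). These shares follow the depth of the cells. When the cells of each library were split into 3 groups of equal size by depth, 369 of 595 mock-treated cells (median 7375 UMIs) and 308 of 584 DAC-treated cells (median 2179 UMIs) in the shallowest group had a *HOX* UMI, and all cells of the deepest group did. At 10000 UMIs per cell, without the shallower cells, the order was the other way, with 93.1% (91.6 to 94.4%) of the mock-treated and 95.2% (93.9 to 96.3%) of the DAC-treated cells. A single *HOX* gene with 3 UMIs or more was present in 9.73% of the mock-treated and 18.1% of the DAC-treated cells at that depth. The mean number of *HOX* genes per cell was 2.74 in mock-treated and 3.55 in DAC-treated cells at that depth, and 5.33 and 6.95 without thinning, with a maximum of 18 and 22 genes. Since both libraries are of a single cell line, no cell type that lacks *HOX* genes was available as a measure of free RNA in the droplets.

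**Figure D4:**
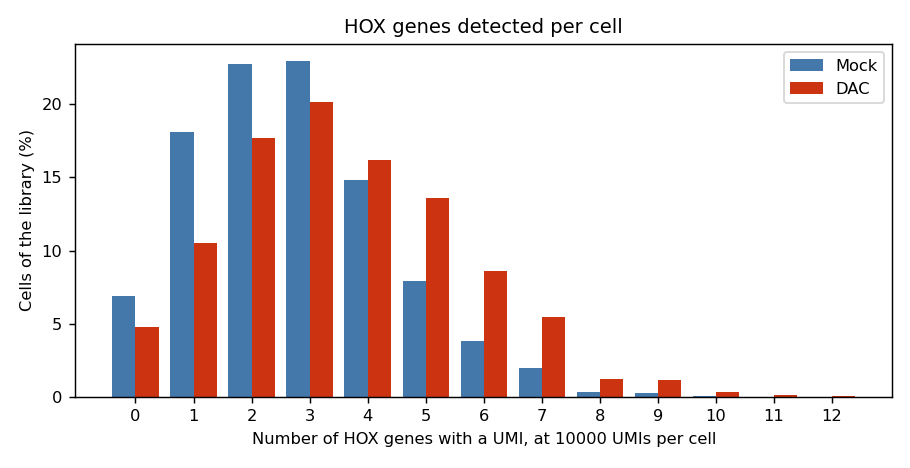
Share of the cells of each library by the number of *HOX* genes with a UMI, after each cell was thinned to 10000 UMIs. The most frequent number was 3 in both libraries (23.0% of the mock-treated and 20.2% of the DAC-treated cells), and numbers of 4 and more were more frequent in DAC-treated cells up to the highest number seen, 12.

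At 10000 UMIs per cell, the shares of cells with a UMI had the same order as the CPM for the abundant genes. *HOXB7* was detected in 33.9% (31.4 to 36.5%) of the mock-treated and 51.3% (48.5 to 54.0%) of the DAC-treated cells, *HOXB6* in 19.5% and 37.7%, *HOXB4* in 17.9% and 30.0%, and *HOXB8* in 22.5% and 32.9%. *HOXB9* was detected in 35.1% (32.6 to 37.7%) and 22.0% (19.7 to 24.3%), and *HOXA9* in 34.7% (32.1 to 37.2%) and 26.1% (23.8 to 28.6%). *HOXA10* was at 18.7% and 19.2%, which differed by less than their intervals. Without thinning, up to 27 UMIs of *HOXB9*, 25 of *HOXB6*, and 23 of *HOXB7* were present in a single DAC-treated cell.

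**Figure D5:**
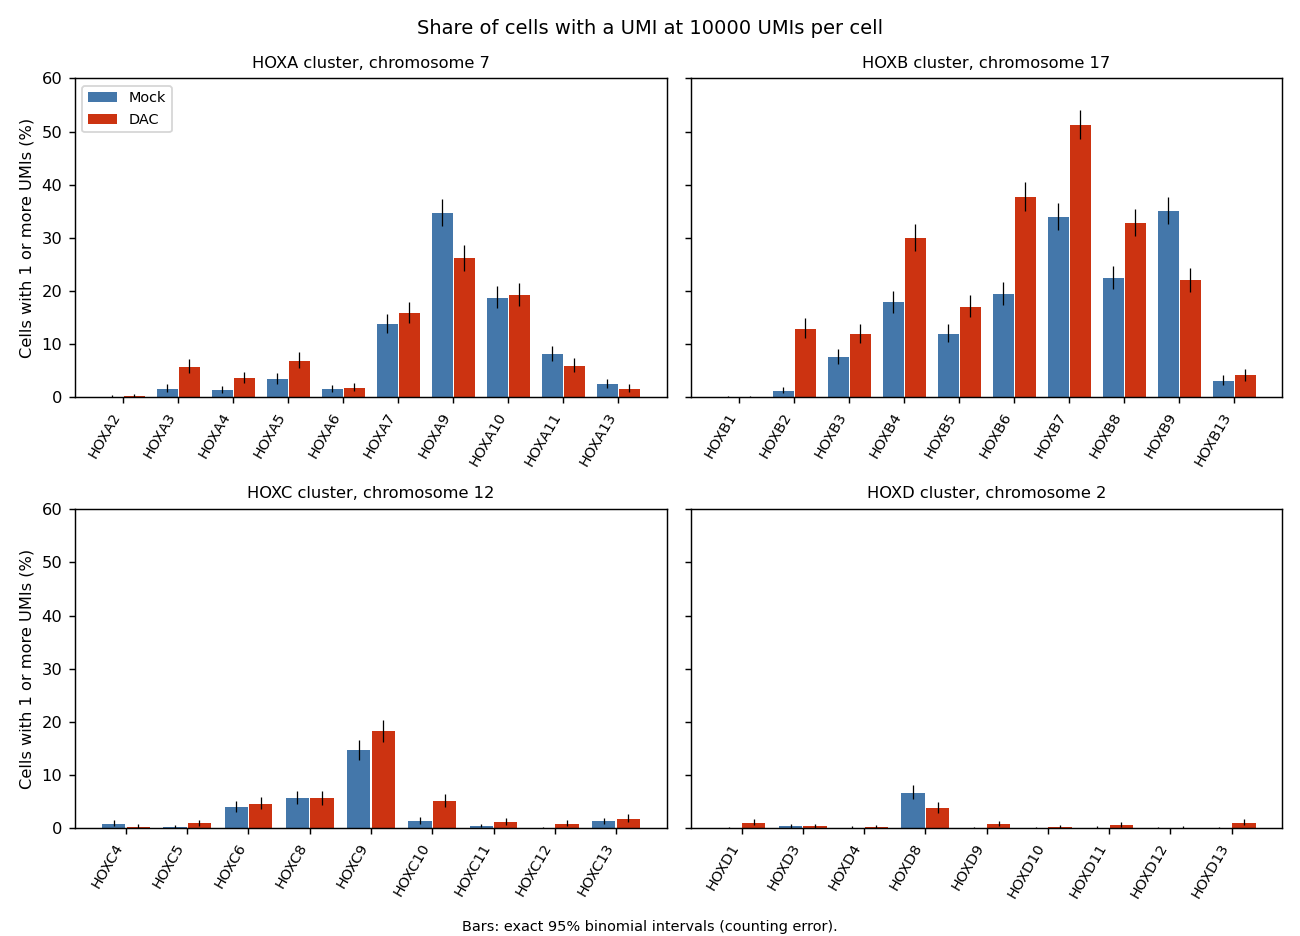
Share of cells with at least 1 UMI of 38 *HOX* genes at 10000 UMIs per cell, with exact 95% binomial intervals, in the mock-treated (blue, 1388 cells) and the DAC-treated library (red, 1293 cells). In the HOXB cluster the DAC-treated bars are the taller ones from *HOXB2* (1.22% and 12.9%) to *HOXB8* (22.5% and 32.9%), and the order turns at *HOXB9* (35.1% and 22.0%).

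Under an equal *HOXB7* share of UMIs in all DAC-treated cells, 447 cells would be without a UMI of this gene, and 608 were. The numbers were 577 and 719 for *HOXB6*, 875 and 1026 for *HOXB9*, and 1118 and 1225 for *HOXB2*. Mock-treated cells had such an excess too, with 688 and 815 cells for *HOXB7* and 672 and 801 for *HOXB9*. The numbers were 1696 and 1704 for *HOXD1* and 1708 and 1711 for *HOXD13*, both first seen in DAC-treated cells. With so few UMIs, nearly all cells lack the gene whatever its spread. These numbers therefore cannot be set against those of the abundant genes. The squared coefficient of variation beyond Poisson sampling, a measure of cell-to-cell variation at 10000 UMIs per cell, could be given in both libraries for 13 *HOX* genes (mean of at least 0.05 UMI), and 10 of them had the higher value after DAC, as did 72.2% of the 9057 genes of the whole table with such a mean. It was 0.425 and 0.463 for *HOXB7*, 0.491 and 0.725 for *HOXB9*, 0.771 and 1.95 for *HOXB5*, and, in the other direction, 1.85 and 0.762 for *HOXB8*.

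Among DAC-treated cells at 10000 UMIs, each gene from *HOXB3* to *HOXB9* was detected in a larger share of the cells with *HOXB2* than of those without it, and the intervals overlapped for *HOXB4*, *HOXB7*, and *HOXB9*. *HOXB3* was detected in 21.0% (15.1 to 27.9%) of the 167 cells with *HOXB2* and in 10.6% (8.83 to 12.5%) of the cells without it, *HOXB5* in 27.5% (20.9 to 35.0%) and 15.5% (13.4 to 17.7%), and *HOXB9* in 29.9% (23.1 to 37.5%) and 20.8% (18.4 to 23.3%). For the HOXA pair *HOXA9* and *HOXA10*, the shares differed by less than their intervals, with *HOXA10* in 18.9% (14.9 to 23.5%) of the cells with *HOXA9* and in 19.3% (16.8 to 21.9%) of the cells without it. In mock-treated cells the shares of this pair were 23.9% and 16.0%. Genes of different clusters could differ in this way too. In DAC-treated cells, *HOXB8* was detected in 42.9% of the cells with *HOXA7* and in 31.0% of those without it. Over the 21 pairs of 7 HOXB genes, Pearson's r across cells had a median of 0.071 over 1388 mock-treated cells against 0.114 over 1293 DAC-treated cells. The maximum was 0.135 and 0.211, and the minimum was -0.026 and 0.0002. Over the 6 pairs of HOXA genes the median was 0.052 and 0.036, and in 2 of these pairs the DAC-treated cells had the higher r. Over the 50 pairs of genes from different clusters, the median was 0.017 and 0.013, with a maximum of 0.102 and 0.087. The cells of a library share their preparation, and with counts this sparse these values are given as a description only. Of the 127 DAC-treated cells with a UMI of *HOXD9*, *HOXD10*, *HOXD11*, or *HOXD13*, 16 had UMIs of more than 1 of these genes, and these 127 cells had a median of 48678 UMIs against 35340 in all DAC-treated cells.

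Of 14 long non-coding RNAs of the clusters with 10 UMIs or more, 6 were higher and 1 was lower (25.4% and 8.39% of all genes), with a median log2 ratio of 0.70. *HOXB-AS3*, transcribed from the middle of the HOXB cluster, had 8 and 172 UMIs (ratio 18.2, 9.02 to 42.8), and *HOXB-AS1* had 129 and 456 UMIs (ratio 2.99, 2.45 to 3.66). *HOXC-AS1* had 163 and 28 UMIs (ratio 0.145, 0.0936 to 0.218), and *HOXA-AS3* had 29 and 96 UMIs (ratio 2.80, 1.83 to 4.40). Of 14 genes beside the clusters with 10 UMIs or more, only *PRAC1* and *PRAC2* were higher and only *HIBADH* and *TTLL6* were lower.

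Of the partners and regulators of *HOX* genes, 25 of 26 Polycomb genes and 15 of 17 trithorax and MLL complex genes lay between the limits, as did 5 of 10 TALE cofactors, 5 of 14 retinoic acid genes, and 12670 of all 19130 genes. Over all 19130 genes, 25.4% were called higher and 8.39% lower. TALE homeodomain proteins bind DNA together with *HOX* proteins, and 4 of 10 were higher and 1 was lower, the higher ones being *PKNOX1* (533 and 1314 UMIs, ratio 2.08, 1.88 to 2.31), *PBX3* (179 and 719 UMIs, ratio 3.40, 2.88 to 4.02), *PBX4* (234 and 693 UMIs, ratio 2.50, 2.16 to 2.92), and *PKNOX2* (1 and 10 UMIs, ratio 8.45, 1.20 to 367). *CDX2*, the caudal-type factor that maintains intestinal identity and activates *HOX* genes, had 438 and 762 UMIs (ratio 1.47, 1.31 to 1.66), and *CDX1* had 0 and 58 UMIs, a CPM at least 16.3-fold higher (exact lower limit 12.9) and the only gene called higher of 3 CDX and ParaHox genes. Of 26 Polycomb genes 1 was higher, *PHF19*, and none was lower, and the methyltransferase gene *EZH2* had a ratio of 1.28 (1.21 to 1.35). Of 17 trithorax and MLL complex genes, which keep *HOX* genes active, *DOT1L* and *WDR5* were higher and none was lower, and *KMT2A* had a ratio of 1.27 (1.22 to 1.32). Retinoic acid switches on anterior *HOX* genes, and of 14 genes of its pathway 6 were higher, among them *CYP26B1* (112 and 302 UMIs), and 3 were lower, *DHRS3* (1934 and 696), *ALDH1A3* (4039 and 2150), and *RARG* (638 and 363). Homeobox genes outside the *HOX* clusters were higher for 40 of 74 genes and lower for 3, with a median log2 ratio of 1.11, and the gene with the most UMIs among those higher was *MSX1* (5956 and 43969 UMIs, ratio 6.24, 6.07 to 6.41). The median over all genes was 0.32. Of 98 such homeobox genes listed, 24 were first seen in DAC-treated cells. Of all genes sparse in mock-treated cells with 10 UMIs or more in both libraries together, 55.5% were called higher. The numbers of *HOX* genes were 19 and 2 of 37, with a median of 1.02, and no test of the difference was possible with 1 library per group.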

How the data were processed

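The labels give 1 library each of mock- and DAC-treated HCT116 cells. Cell Ranger and hg38 were used by the authors, and the deposited values are raw UMI counts of each gene in each cell, not normalized. The annotation release and any filter on cells are not given in the sources used here. All deposited cells were used, and doublets were not called, since doublets of 1 cell line carry no marker. UMIs were summed per library and scaled to its total (CPM) in Python 3.11.15 (pandas 2.3.3, numpy 2.4.6, scipy 1.17.1, matplotlib 3.10.9). Ratios have exact conditional Poisson intervals and shares have Clopper-Pearson intervals, at the 95% level. A count of 0 was set to 3 counts over the library. For equal depth, cells were thinned to 10000 UMIs or to 1007, the 10th percentile. Positions and exon overlaps are from GENCODE release 44 on hg38, and promoters from RefSeq. Computations were tested on simulated data. Every *HOX* gene but 1 was named, with the most abundant called genes and known *HOX* regulators of 12 other gene lists. The remaining *HOX* gene and 1 cofactor gene are not reported here. The members, lists, and alternatives were chosen with earlier results of these data known. Median-of-ratios scaling, averaged per-cell CPM, filters on cells, and other limits were tried.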

Additional observations from a re-analysis of the deposited data

How the results depend on the processing

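The CPM ratio of all *HOX* UMIs stayed above 1 under every alternative tried. It was 1.60 without cells over 20% mitochondrial UMIs, 1.39 at 10000 UMIs per cell, 1.55 at 1007 UMIs per cell, 1.29 with median-of-ratios scaling, and 1.38 for averaged per-cell CPM. In the same order the HOXB ratio was 1.93, 1.62, 1.83, 1.53, and 1.70. The HOXC ratio was 1.29 at 1007 UMIs, 1.25 with median-of-ratios scaling, and 1.23 with per-cell CPM. The HOXA ratio was 1.14 without cells over 20% mitochondrial UMIs and 1.11 at 1007 UMIs, and below 1 with median-of-ratios scaling (0.906) and per-cell CPM (0.936). The HOXD ratio was 0.785 without cells over 20% mitochondrial UMIs, 0.757 with per-cell CPM, and above 1 (1.38) at 1007 UMIs. The causes were not tested. At 10000 and 1007 UMIs per cell, where fewer genes had 10 UMIs, 12 and 6 genes were higher and 1 and 1 lower, and 8 genes were first seen at 1007 UMIs. The share of cells with a *HOX* UMI was 99.8% in both libraries (99.85% and 99.82%) without cells under 10000 UMIs or over 50% mitochondrial UMIs, 92.3% and 84.8% without cells over 20% mitochondrial UMIs, 93.1% and 95.2% at 10000 UMIs, 24.9% and 34.7% at 1007 UMIs, and 46.6% and 58.2% when 3 UMIs of a gene were required. The ratio of the mean numbers of *HOX* genes per cell, 1.30, was 1.43, 1.23, 1.53, and 2.14 without the cells under 10000 UMIs or over 50% mitochondrial, without those over 20% mitochondrial, at 1007 UMIs, and with 3 UMIs. Of 279 values of single genes under the alternatives, 213 lay within the counting interval of the reported ratio and 66 did not, and no called gene changed direction. No value moved beyond its interval without the shared barcodes or without the deepest 5% of cells. No paired analysis was possible because each group has 1 library. Depth limits statements on *HOXB1*, *HOXA2*, *HOXD3*, *HOXD4*, and *HOXD10*, and a difference between the cultures or library preparations other than DAC cannot be told apart from the treatment.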
